A study of Mus musculus with 21 samples.

Results

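The Hox cluster genes were examined in mouse embryonic stem cells treated with RNA polymerase I inhibitors. Members were every row of the deposited expression table whose symbol was Hox, a cluster letter from a to d and a position number. The rule used symbols and no measured value. It gave 38 of the 20900 rows, 10 in cluster A, 10 in B, 9 in C and 9 in D. The mouse annotation holds 39 such genes, and Hoxa6 was not analysed here.

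The cells were E14 embryonic stem cells, an established line of 129 strain origin, grown with serum and leukaemia inhibitory factor, a cytokine that holds them undifferentiated. They received 1 µM of BMH-21 or CX-5461, compounds that block RNA polymerase I, which makes ribosomal RNA. Poly(A) RNA was sequenced before treatment (0 h) and at 2, 4 and 8 h under either compound, in 7 groups of 3 libraries. Both inhibitors were compared with the same 0 h libraries, and no untreated group was matched to 2, 4 or 8 h. No group carried an allele or transgene, and all 21 libraries came from 1 cell line. The labels do not say that replicates were separate cultures, so p-values measure the spread between these libraries only.

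Hox genes encode homeodomain transcription factors that give cells their position along the head-to-tail axis. In mammals they lie in clusters whose gene order follows the order of expression: low position numbers are switched on early and act in the head and hindbrain, high numbers later and toward the tail and limb ends. In undifferentiated embryonic stem cells the clusters are known to be covered by Polycomb repressive marks and to be nearly silent, and retinoic acid, Wnt signals and Cdx factors are known to open them from the low-numbered end.

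Cluster A occupied chr6:52155590-52260880 on the minus strand, cluster B chr11:96194316-96368256, cluster C chr15:102921103-103036852 and cluster D chr2:74668310-74765142, the last 3 on the plus strand (GENCODE M21, GRCm38, the same build as mm10). Hox promoters are rich in CG dinucleotides, a feature of genes under Polycomb control, and 2 are shown because they flank or match genes the results turn on. Hoxb8 is the next gene of the cluster after Hoxb9, and Hoxd13 is the most-read gene of cluster D. Each line is the 250 bases before the RefSeq start site (GRCm38.p6, plus strand), with CG in capitals.
Hoxb8 upstream, chr11:96281655-96281904: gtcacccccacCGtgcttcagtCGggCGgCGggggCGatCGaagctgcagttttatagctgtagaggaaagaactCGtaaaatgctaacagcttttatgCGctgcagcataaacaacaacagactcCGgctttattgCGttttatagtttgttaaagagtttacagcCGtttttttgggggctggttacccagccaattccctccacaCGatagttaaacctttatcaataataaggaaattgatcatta
Hoxd13 upstream, chr2:74667975-74668224: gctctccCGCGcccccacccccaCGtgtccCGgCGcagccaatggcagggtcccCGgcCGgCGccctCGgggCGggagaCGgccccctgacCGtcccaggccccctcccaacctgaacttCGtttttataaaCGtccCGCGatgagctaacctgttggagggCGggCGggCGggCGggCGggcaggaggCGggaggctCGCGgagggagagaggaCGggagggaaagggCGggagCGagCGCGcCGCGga
The stretches hold 12 and 31 CG. RefSeq windows of 300 bases around the start site were matched for 21 of the 38 members, in 23 windows. Their median was 14 CG against 7 over all 32851 windows, and 69.57% of the Hox windows held at least 10 CG against 43.47% of all. Hoxb9 and Hoxc13 were among the members without a matched window.

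The table held log2 expression values from which the whole read count of every gene could be recovered. Libraries held 46604397 to 62812641 reads, and a log2 value of 0 corresponded to 42 to 86 reads. The deposited values carry a scaling factor for each library, 0.832 to 1.375, wider than the 0.941 to 1.107 obtained from the median ratio of the genes. A comparison therefore shifts all genes together: the median log2 difference of the 14666 genes tested was -0.40 at 8 h of BMH-21, 0.11 at 8 h of CX-5461 and -0.48 between them. Values relative to that median are given where they matter. Of the 8 embryonic stem cell markers, none was at 0 reads in any group. Their summed level was 4734 to 4824 RPM in control (RPM, reads of a gene scaled to the library's total of recovered reads). It was 2798 to 2990 at 8 h of BMH-21 and 4191 to 4267 at 8 h of CX-5461.

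In untreated cells the Hox clusters were close to silent. The 38 genes together had 767 reads in the 3 control libraries. The 4 clusters were alike in total, with 218 reads in A, 227 in B, 168 in C and 154 in D. Most-read in clusters B, C and D were Hoxb9 with 110 reads, Hoxc13 with 117 and Hoxd13 with 85, each with over 10 reads in every control library. At the other end, 16 members had at most 3 reads in every control library, 18 had 0 reads in at least 1 of them, and 0 had 0 reads in all 3.

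Per length, the control level was 0.299 ± 0.072 RPKM (RPM per kilobase of exon) for Hoxc13, 0.265 ± 0.091 for Hoxb9 and 0.217 ± 0.095 for Hoxd13 (SD, n = 3). These 3 levels did not separate beyond their spread. Of the genes in the table, 32.9% were lower than Hoxd13. The 3 genes are not neighbours in function: Hoxb9 acts in the trunk, Hoxc13 in hair and nail, and Hoxd13 in the digits.

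**Figure D1:**
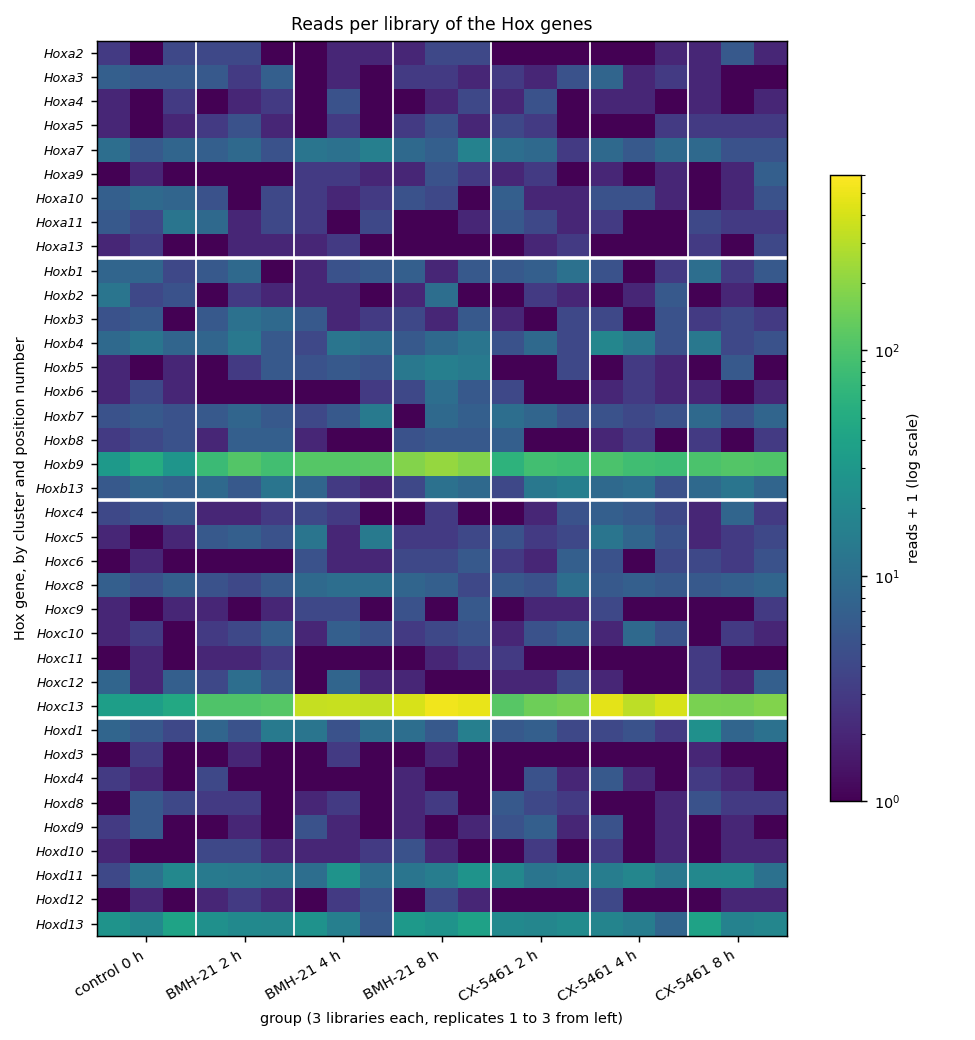
Recovered reads plus 1 of Hox genes (rows, by cluster and position number) in the 21 libraries (columns, 3 per group), on a logarithmic colour scale. Hoxb9 and Hoxc13 stand out in every treated group, reaching 216 and 518 reads, while 24 rows stay at or below 10 reads in all 21 libraries.

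Genes were tested with limma, and called at an adjusted p below 0.05, where 3 or more of the 21 libraries had a log2 value above 0. Hoxb9 and Hoxc13 passed and the other 36 did not. Each of the 2 had only 1 control library above 0 and passed through its treated groups, so that both were called carries no weight as a count. The 2 were called higher in each of the 6 comparisons with control. The share of all tested genes called higher was 8.48%, 22.1% and 24.5% at 2, 4 and 8 h of BMH-21, and 7.45%, 19.8% and 35.1% at 2, 4 and 8 h of CX-5461. The share called lower, used for the gene lists further on, was 44.9% and 56.9% at 4 and 8 h of BMH-21, and 51.2% and 14.3% at 4 and 8 h of CX-5461.

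Hoxc13 encodes a transcription factor of hair and nail and lies at the high-numbered end of cluster C, chr15:102921103-102928814. Its log2 values were -0.40, -0.36 and 0.0036 in the control libraries. They were 1.10, 1.07 and 1.29 at 2 h of BMH-21, 2.86, 2.60 and 2.59 at 4 h, and 2.76, 2.59 and 2.95 at 8 h. With CX-5461 they were 1.44, 1.32 and 1.48 at 2 h, 2.82, 2.76 and 2.89 at 4 h, and 1.73, 1.63 and 2.03 at 8 h. Every treated library lay above every control library, as it did for 11%, 22.8% and 24.1% of the genes tested at 2, 4 and 8 h of BMH-21. The shares for CX-5461 were 8.71%, 20.8% and 42.8%. In reads, 35 to 47 in control became 407 to 518 at 8 h of BMH-21 and 318 to 466 at 4 h of CX-5461.

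Against control, Hoxc13 was higher by 1.41, 2.94 and 3.02 on the log2 scale at 2, 4 and 8 h of BMH-21 (SE 0.15, limma, adjusted p = 7.7e-14, 1.9e-37 and 9.0e-39). With CX-5461 it was higher by 1.66, 3.08 and 2.04 (SE 0.15, limma, adjusted p = 8.3e-18, 3.5e-39 and 2.3e-24). It was thus above control by 2 h and higher again at 4 h with either inhibitor. From 2 to 4 h the gain was 1.53 under BMH-21 (limma, adjusted p = 2.4e-16) and 1.41 under CX-5461 (limma, adjusted p = 2.1e-14), in comparisons where 20.8% and 20.7% of the genes tested were called higher. After 4 h the inhibitors parted. From 4 to 8 h the difference with BMH-21 was 0.08 (limma, adjusted p = 0.67, 95% interval -0.22 to 0.39). With CX-5461 Hoxc13 fell by 1.03 (limma, adjusted p = 6.4e-09), where 4.85% of the genes tested were called lower and the median log2 difference of all genes tested was 0.34.

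**Figure D2:**
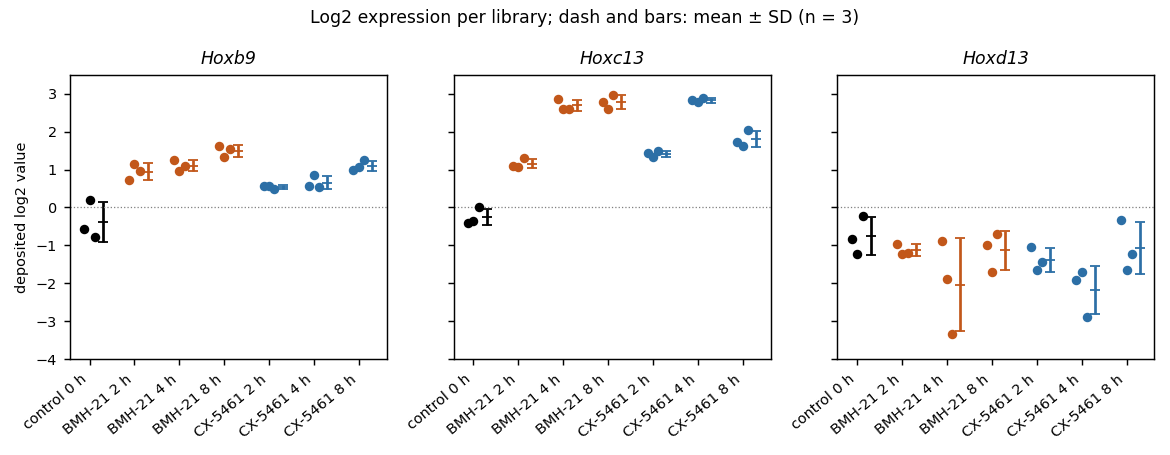
Deposited log2 values of Hoxb9, Hoxc13 and Hoxd13 (y axis) in the 7 groups (x axis), 1 point per library, with the mean and SD beside them (n = 3). All 18 treated libraries lie above the control libraries for Hoxb9 and Hoxc13, while Hoxd13 has its lowest mean at 4 h of each inhibitor.

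Hoxb9, a trunk gene of position 9 in cluster B, chr11:96271457-96276595, rose less. Its log2 values were -0.57, 0.21 and -0.78 in control, the second library standing apart from the others. They were 0.73, 1.16 and 0.95 at 2 h of BMH-21, 1.25, 0.96 and 1.09 at 4 h, and 1.62, 1.33 and 1.53 at 8 h. With CX-5461 they were 0.57, 0.58 and 0.48 at 2 h, 0.58, 0.85 and 0.53 at 4 h, and 0.99, 1.06 and 1.24 at 8 h. No treated library fell within the range of the control libraries, and reads went from 27 to 52 in control to 181 to 216 at 8 h of BMH-21.

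Against control, Hoxb9 was higher by 1.33, 1.48 and 1.88 on the log2 scale at 2, 4 and 8 h of BMH-21 (SE 0.20, limma, adjusted p = 1.7e-08, 4.7e-11 and 6.7e-16). With CX-5461 it was higher by 0.93, 1.04 and 1.48 (SE 0.20, limma, adjusted p = 9.8e-05, 2.0e-06 and 7.7e-11). Most of the difference was present at 2 h: from 2 to 4 h the difference was 0.15 under BMH-21 and 0.11 under CX-5461 (limma, adjusted p = 0.53 and 0.67). From 4 to 8 h the values were 0.39 under BMH-21 (limma, adjusted p = 0.079) and 0.45 under CX-5461 (limma, adjusted p = 0.0403), the latter among 58.8% of tested genes called higher. That call did not hold relative to the median gene, where the gain was 0.07 (limma, adjusted p = 0.72), and was lost in 5 of 6 fits that left out a library (each CX-5461 8 h replicate, and CX-5461 4 h replicates 1 and 3; adjusted p up to 0.14).

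The inhibitors were compared at matched dose and time, over 3 pairs of groups. For Hoxc13 the difference of BMH-21 minus CX-5461 was -0.26 at 2 h (95% interval -0.56 to 0.05) and -0.14 at 4 h (-0.44 to 0.16), neither called (limma, adjusted p = 0.45 and 0.56). At 8 h it was 0.97 higher with BMH-21 (limma, adjusted p = 1.2e-08), and 1.40 higher relative to the median gene. For Hoxb9 the difference was 0.40 at 2 h (95% interval 0.01 to 0.79), 0.45 at 4 h (0.06 to 0.84) and 0.39 at 8 h (0.0034 to 0.78), with limma adjusted p = 0.32, 0.10 and 0.060. All 3 BMH-21 libraries lay above all 3 CX-5461 libraries for Hoxb9 at each time, as for 9.36%, 13.7% and 12.6% of the genes tested. Of the 2 genes, 0, 0 and 1 were called at 2, 4 and 8 h, where 3.99%, 17.8% and 79.2% of all tested genes were called in either direction; 1, 1 and 2 had an unadjusted limma p under 0.05.

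The call for Hoxb9 between the inhibitors changed with the scaling and with other choices. Relative to the median gene of each library it was 0.44 higher with BMH-21 at 4 h and 0.82 higher at 8 h (limma, adjusted p = 0.0303 and 9.0e-05). With median-ratio factors the 8 h difference was 0.87 (limma, adjusted p = 4.6e-05). Without BMH-21 8 h replicate 2, on the deposited scale, it was 0.48 (limma, adjusted p = 0.0394), and the call was also made with voom weights and with only the groups compared (limma, adjusted p = 0.0351 and 0.0249). It was not made with the other filters, an offset of 5 reads or the replicate block, where the adjusted p was 0.0615 to 0.1056. Against control, the choice of scaling changed no call: relative to the median gene Hoxb9 was higher by 2.09 at 8 h of BMH-21 and 1.27 at 8 h of CX-5461, and Hoxc13 by 3.23 and 1.83.

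**Figure D3:**
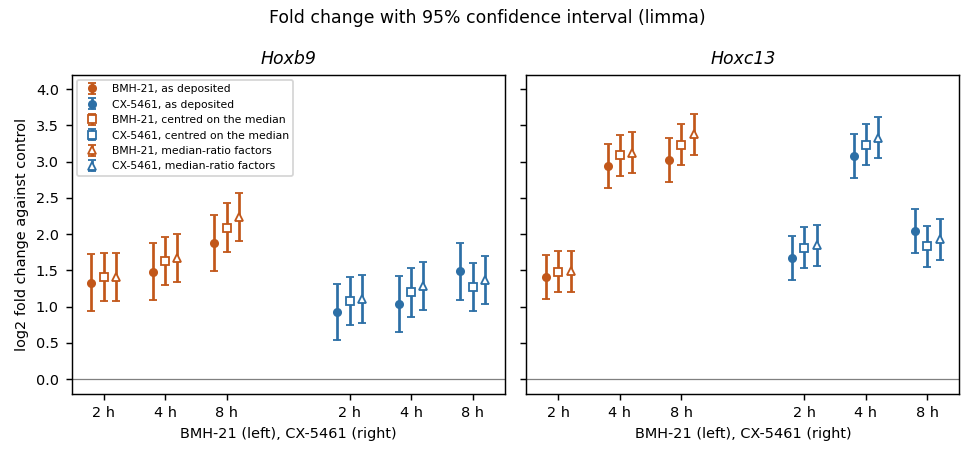
Log2 fold change against control with its 95% confidence interval (y axis) at 2, 4 and 8 h (x axis), under the deposited scaling, centring on the median gene and median-ratio factors. Every interval lies above 0; at 8 h the alternatives move the BMH-21 values up and the CX-5461 values down, for example Hoxb9 from 1.88 to 2.09 and from 1.48 to 1.27.

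Hox neighbours of the 2 genes had few reads, and their difference from Hoxb9 or Hoxc13 was not tested. Hoxb8, 5309 bases beyond Hoxb9, had 2 to 4 reads in control, 0 to 1 at 4 h of BMH-21 and 4 to 5 at 8 h. With CX-5461 Hoxb8 had 0 to 2 at 4 h and at 8 h. In the fit without the filter its difference at 4 h of BMH-21 was -2.42 (limma, adjusted p = 0.019). That call was kept in 3 of 6 fits that left out a library. Hoxb13, 74009 bases on the other side, had 5 to 7 in control and 3 to 10 at 8 h of BMH-21. Hoxc12, 7942 bases from Hoxc13, had 1 to 7 reads in control and 0 to 1 at 8 h of BMH-21, where Hoxc13 had 407 to 518. Hotair, the long noncoding RNA of cluster C, 15247 bases from Hoxc13, had 0 to 2 reads in every library. Gm53, a long noncoding RNA gene 6588 bases from Hoxb9 on the side of Hoxb13, was looked at after its position was seen. It had 38 to 50 reads in control, 93 to 130 at 8 h of BMH-21 and 108 to 123 at 8 h of CX-5461, above the control range in both. Gm53 was higher than control by 0.59 and 0.73 at 4 and 8 h of BMH-21 (limma, adjusted p = 0.0094 and 0.0010). The CX-5461 values were 1.15 and 1.36 (limma, adjusted p = 8.0e-07 and 1.4e-08). At 8 h Gm53 was thus lower with BMH-21 than with CX-5461, the difference being -0.63 (limma, adjusted p = 0.0048), but relative to the median gene the difference was -0.20 (limma, adjusted p = 0.38). At 4 h the Gm53 difference was -0.56 on the deposited scale and -0.56 relative to the median gene (limma, adjusted p = 0.0507 and 0.0273). The annotation placed no other gene over Hoxb9 or Hoxc13 on either strand.

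In the treated groups 2 genes held most Hox reads. These 2 passed the filter through those groups, so that their share is larger there carries no weight as a result. Hoxb9 and Hoxc13 made up 29.5% ± 3.5 of all Hox reads in control (SD, n = 3). The share at 2, 4 and 8 h of BMH-21 was 54.2% ± 0.64, 75.9% ± 1.8 and 76.3% ± 2.0. For CX-5461 it was 57.3% ± 3.5, 78.6% ± 3.9 and 63.0% ± 4.2. The other 36 genes together had 2.02 to 4.47 RPM in the 21 libraries, with 3.20 to 3.60 in control. The range at 4 h was 2.42 to 3.03 (BMH-21) and 2.02 to 3.04 (CX-5461), all 6 libraries below the control range. At 8 h they had 3.28 to 4.47 and 2.48 to 3.36, overlapping control. These sums used total reads, without the deposited scaling factors of 0.832 to 1.375. The overlap at 8 h depends on that choice. Libraries had a read for 22 to 33 of the 38 members.

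The 8 genes of cluster C other than Hoxc13 summed to 0.24 to 0.38 RPM in control. At 4 h they summed to 0.53 to 0.59 under BMH-21 and 0.39 to 0.55 under CX-5461, above the control range. In reads the sums were 13 to 19 in control, 28 to 30 and 19 to 31. The lowest CX-5461 library thus had no more reads than the highest control library. Hoxc5 alone went from 2 reads over the 3 control libraries to 25 and 22 at 4 h. For 9 of the 10 cluster A genes the sum was 0.44 to 0.72 RPM in control. It was 0.35 to 0.43 and 0.23 to 0.41 at 4 h, below the control range, while the other 4 treated groups overlapped control. The sums of cluster B without Hoxb9 and of cluster D overlapped control in each of the 6 treated groups. All these cluster sums used total reads, without the deposited scaling factors. Which groups overlap control depends on that choice for clusters A, C and D.

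**Figure D4:**
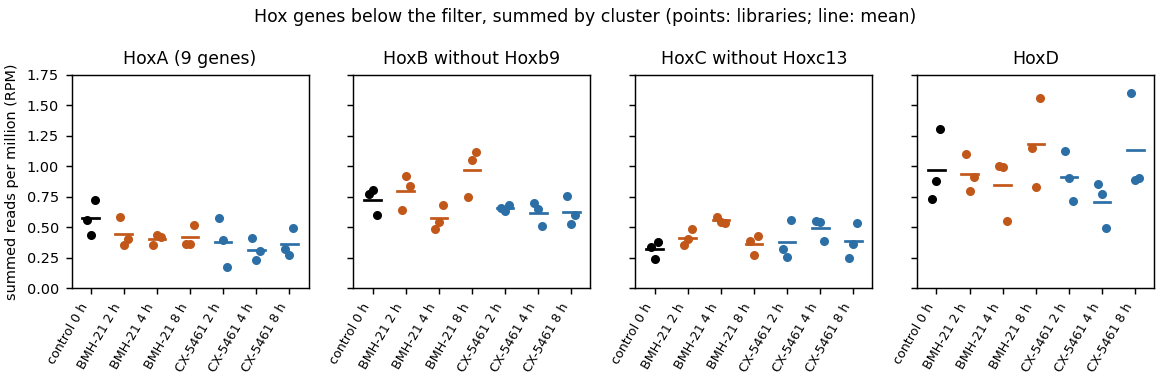
Summed RPM (y axis) of Hox genes below the filter, by cluster (9 of the 10 genes for A), in the 7 groups (x axis), with 1 point per library and a line at the mean. The cluster C points at 4 h of both inhibitors, 0.39 to 0.59, lie above the control points, 0.24 to 0.38, and those of cluster A, 0.23 to 0.43, below theirs, 0.44 to 0.72. In reads, the cluster C sum of the lowest CX-5461 4 h library, 19, equalled that of the highest control library. RPM uses total reads, and which groups overlap control depends on that scaling for clusters A, C and D.

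Hoxd13, the last gene of cluster D, was chosen for values in every library after its values were seen, as the most-read gene there. It had 26, 19 and 40 reads in control, 25, 15 and 5 at 4 h of BMH-21, and 17, 14 and 7 at 4 h of CX-5461. In a fit of all 20900 rows without the filter it was lower at 4 h by -1.28 and -1.40 (limma, adjusted p = 0.0134 and 0.0065). The calls rested on single libraries. Without BMH-21 4 h replicate 3 or control replicate 3 the first was lost (adjusted p up to 0.23), and without CX-5461 4 h replicate 3 the second (adjusted p = 0.067).

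Without the filter, 12 of the 38 Hox genes were called at 4 h of BMH-21 where 52.1% of all rows were called, and 11 at 8 h against 65.5%. With CX-5461 there were 9 at 4 h against 53.6% and 6 at 8 h against 37.7%. At 2 h the counts were 3 for BMH-21 against 12.6% and 2 for CX-5461 against 16.6%. Between the inhibitors 8 were called at 8 h against 59.6%. At these depths single reads weigh on the calls, so the 36 low members are described by those called in 3 unfiltered fits, with the deposited scaling, with median-ratio factors and with an offset of 5 reads. There were 24 such calls, of which 16 were made in every fit that left out a compared library.

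The low members called higher in all 3 fits were Hoxb5 and Hoxc5, both of position 5. They were 1 of 36 at 4 h of BMH-21, 1 at 8 h of BMH-21 and 1 at 4 h of CX-5461, where 18.3%, 21% and 15.9% of all rows were called higher in the same 3 fits. At 8 h of CX-5461 the count was 0 against 26.5%. Hoxb5, known in the placing of the forelimb, had 1, 0 and 1 reads in control, 4, 5 and 4 at 4 h of BMH-21 and 12, 15 and 13 at 8 h. With CX-5461 at 8 h it had 0, 5 and 0. It was called at 8 h of BMH-21 against control and against CX-5461 (limma without the filter, adjusted p = 0.0015 and 0.0020), with the 3 BMH-21 libraries above all others. Hoxb5os, which overlaps it on the other strand, had 0 to 1 reads throughout. Hoxc5 had 1, 0 and 1 reads in control, 11, 1 and 13 at 4 h of BMH-21 and 11, 7 and 4 at 4 h of CX-5461 (limma without the filter, adjusted p = 0.0025 and 0.0012). The annotated range of Hoxc5 overlaps Hoxc6, Hoxc8, Hoxc9 and Hoxc10 on the same strand. Whether their exons overlap was not examined, so its reads may not be separable from theirs.

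Those called lower against control in all 3 fits numbered 5 of 36 at 4 h and 5 at 8 h of BMH-21, where 28.2% and 32.2% of all rows were. With CX-5461 they numbered 4 at 4 h and 3 at 8 h, against 26.2% and 9.47%. Between the inhibitors at 8 h, 1 was higher with BMH-21 (9.12% of all rows) and 3 lower (26.3%). The genes lower than control came from all 4 clusters. Hoxa3, required for the thymus and parathyroid, went from 5 to 6 reads in control to 0 to 1 at 4 h of BMH-21 and 0 to 1 at 8 h of CX-5461. Hoxa11, a gene of the forearm, kidney and uterus, went from 3 to 11 to 0 to 1 at 8 h of BMH-21. Hoxc12 and Hoxc4 had 0 to 1 and 0 to 2 reads there, from 1 to 7 and 3 to 5. Hoxa11 and Hoxc12 were also called lower at 4 h of CX-5461, with 0 to 2 and 0 to 1 reads, each in 6 of 6 left-out fits. Hoxa10 and Hoxb2 were likewise called with both inhibitors, but Hoxa10 at 8 h of CX-5461 in 2 of 6 left-out fits and Hoxb2 at 4 h of BMH-21 in 4 of 6. A read or 2 separates such values, and 3 reads correspond to a log2 value of -4.63 to -3.59.

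Of 16 noncoding RNAs and Evx genes of the clusters, 8 were in the table and 0 passed the filter. Evx1, the homeobox gene beyond Hoxa13, had 28 to 34 reads in control and 33 to 39 at 2 h of either inhibitor. It had 0 to 8 at 4 h and 5 to 8 at 8 h of BMH-21, and 2 to 4 at 4 h and 41 to 55 at 8 h of CX-5461. Evx1 was thus low at 4 h with both, and above the control range again at 8 h of CX-5461. Among 13 tested genes flanking the clusters, 0 rose and 10 fell at 8 h of BMH-21 and 2 rose and 2 fell at 8 h of CX-5461, with medians of -0.69 and -0.11. Of all tested genes 24.5% rose and 56.9% fell at 8 h of BMH-21, and 35.1% and 14.3% at 8 h of CX-5461. Smug1, a DNA repair gene near cluster C, fell by 1.15 and 0.30 and Snx10 near cluster A by 1.78 and 0.30.

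Hox proteins bind DNA with TALE homeodomain cofactors, and all 9 in the list were tested. At 8 h of BMH-21, 2 rose and 5 fell, with a median of -0.49; at 8 h of CX-5461, 3 rose and 3 fell, with a median of 0.12. The shares of all tested genes were 24.5% and 56.9%, and 35.1% and 14.3%. Pknox2 rose at every time, by 0.62, 2.34 and 2.98 under BMH-21. Its values under CX-5461 were 0.52, 2.25 and 2.09. Meis2 fell by 2.50 at 8 h of BMH-21 and by 1.80 at 8 h of CX-5461.

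The genes that open or repress the clusters also moved. Of 12 tested activators of Hox transcription, 6 rose and 6 fell at 8 h of BMH-21, and 6 rose and 0 fell at 8 h of CX-5461, beside 24.5% and 56.9%, and 35.1% and 14.3%, of all tested genes. Wnt3a, a signal of the growing tail end, rose by 2.80 and 1.70. The caudal factor Cdx2 fell by 1.20 and 0.93 at 4 h and was higher than control by 1.36 and 1.26 at 8 h. The retinoic acid receptors Rarg and Rara fell by 1.51 and 1.21 at 8 h of BMH-21, and were not called at 8 h of CX-5461 (-0.14 and -0.20). Rarb, itself a retinoic acid target, rose by 1.97 at 8 h of BMH-21.

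Of 21 Polycomb and Trithorax genes, 18 fell at 4 h of each inhibitor, where 44.9% (BMH-21) and 51.2% (CX-5461) of all tested genes fell. At 8 h of BMH-21, 18 fell and 1 rose against 56.9% and 24.5% of all, with a median of -0.79 against -0.40. At 8 h of CX-5461, 6 fell and 2 rose against 14.3% and 35.1%, with a median of -0.15 against 0.11. Of the repressive complex that methylates histone H3 at lysine 27, Ezh2 fell by 1.24, Eed by 1.05, Suz12 by 1.32 and the associated Jarid2 by 1.76 at 8 h of BMH-21. With CX-5461 at 8 h Ezh2 fell by 0.55, Eed by 0.50 and Jarid2 by 0.43. Pcgf2 fell by 2.09 and Phc2 rose by 1.15 at 8 h of BMH-21, both of the complex that ubiquitinates histone H2A.

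Of the 8 embryonic stem cell markers, 0 rose and 8 fell at 8 h of BMH-21, and 1 rose and 6 fell at 8 h of CX-5461. Of all tested genes 24.5% and 56.9%, and 35.1% and 14.3%, did. Markers of other cell types that express Hox genes moved in part. Of 5 tested fibroblast markers, 1 rose and 1 fell at 8 h of BMH-21 and 4 rose and 0 fell at 8 h of CX-5461, where 24.5% and 56.9%, and 35.1% and 14.3%, of all tested genes did. The 10 in the list summed to 32.1 to 34.1 RPM in control, 58.4 to 63.5 at 8 h of BMH-21 and 48.0 to 50.02 at 8 h of CX-5461. Col1a1 rose by 1.86 and 1.24, Dcn had 3 to 23 reads and Col3a1 1 to 19 over the 21 libraries. The 8 mesoderm markers summed to 10.9 to 11.8 in control, 18.1 to 19.2 and 17.6 to 20.3. Of 7 tested, 2 rose and 3 fell with BMH-21 and 4 rose with CX-5461, beside the same shares of all genes. Mesp1 rose by 3.34 and 1.45, and T, also counted among the activators, fell by 0.60 with BMH-21. Of 6 tested endoderm markers, 2 rose and 3 fell at 8 h of BMH-21 and 2 rose and 0 fell at 8 h of CX-5461. Of 4 tested neural markers, 0 rose and 2 fell, and 1 rose and 1 fell, beside the same shares of all genes. The 8 endoderm markers summed to 17.0 to 18.8, 35.8 to 39.1 and 21.3 to 22.6, and the 8 neural markers to 181 to 228, 141 to 148 and 253 to 263. No marker list had a gene at 0 reads in all libraries of these 3 groups. In bulk RNA, more cells of a type and more RNA per cell cannot be told apart, and the part of these markers in the Hoxb9 and Hoxc13 rises was not tested.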

How the data were processed

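The data were 21 poly(A) RNA libraries made with a directional kit after DNase treatment, per the labels' protocols, in 7 groups of 3 taken from the sample titles. The authors deposited 1 table of log2 expression values, voom-normalized as its name states. The submitters' processing notes name Trim Galore 0.5.0, TopHat2 2.1.1, R 4.0.5, DESeq2 1.30.1, edgeR 3.32.1, limma 3.46.0 and mm10. The counting program, its use of strand, the annotation, the filters and the source of the scaling factors are not given in the sources used here, so reads of overlapping genes cannot be assigned with certainty. The 21 columns were matched to samples by name, with 0 left unmapped.

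Every log2 value was a whole number of reads plus 0.5 over a size per library, to within 1.7e-08. Of 14666 genes with a log2 value above 0 in at least 3 libraries, each was tested in limma 3.58.1 (R 4.3.3) with 1 mean per group over all 21 libraries, a mean-variance trend, two-sided contrasts and Benjamini-Hochberg adjustment at 0.05; 6234 were set aside. Because of the offset, fold changes of low genes come out too small. The moderated variance drew on a prior of 111.51 degrees of freedom and 14 residual ones; the SD of Hoxb9 was 0.2423 alone and 0.2411 moderated, and that of Hoxc13 0.1583 and 0.1878. On simulated reads for 8 h of BMH-21 over 14666 genes, 198 of 200 changed genes were recovered (98 of 100 at a log2 change of 1, 100 of 100 at 2) with 17 false calls. No 2 replicates agreed within sampling noise (chi-square over its degrees of freedom, 2.65 to 27.3).

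The members, the lists and the tests were chosen with earlier results of these data known. By rule, tested members have values in every library: the highest in control per cluster, the largest called rise or fall against control, and the largest called difference between the inhibitors at 8 h. The other members have counts and ranges, and some genes are not reported here. The comparisons of successive times, the 2 unfiltered fits with another scaling or offset, and the unfiltered fits leaving out a library were added after seeing the data. Alternatives were other filters, centring, median-ratio factors, an offset of 5 reads, voom weights, only the groups compared, a replicate block and leaving out each library. Of the symbols in the table, 96.0% matched GENCODE M21, the source of coordinates and lengths; figures were drawn with matplotlib 3.10.9.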

Additional observations from a re-analysis of the deposited data

Results flagged for a closer look

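Differences between inhibitors or times were drawn out where the difference itself was tested in limma and called. Hoxc13 was 0.97 higher on the log2 scale with BMH-21 than with CX-5461 at 8 h (limma, adjusted p = 1.2e-08), in all 3 libraries of each, and 0.88 to 1.09 higher when any compared library was left out. Hoxc13 was 1.53 higher at 4 h than at 2 h of BMH-21 and 1.41 higher at 4 h than at 2 h of CX-5461. From 4 to 8 h of CX-5461 the Hoxc13 difference was -1.03, and -1.41 relative to the median gene. Hoxb9 was 0.45 higher at 8 h than at 4 h of CX-5461, and 0.07 higher relative to the median gene.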

How the results depend on the processing

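Of 12 results of Hoxb9 and Hoxc13 against control, 120 of 120 alternative fits and 72 of 72 fits leaving out a library kept the direction and the call. Both genes passed the filter through their treated groups, and the fits share libraries. The tally therefore shows only how the calls depend on these choices and is no independent support. Leaving out the filter changed the number of Hox genes called because 38 were then tested in place of 2: 12 and 11 at 4 and 8 h of BMH-21, 9 and 6 at 4 and 8 h of CX-5461, and 1 and 8 between the inhibitors at 4 and 8 h. The shares of all rows called were 52.1% and 65.5%, 53.6% and 37.7%, and 10.6% and 59.6%. With median-ratio factors and no filter the counts were 9 and 9, 7 and 7, and 1, 1 and 8 between the inhibitors at 2, 4 and 8 h. The shares of all rows were 57.4% and 67%, 53.8% and 53.2%, and 9.86%, 28.8% and 53.7%. With an offset of 5 reads and no filter they were 11 and 18 for BMH-21, 4, 12 and 5 at 2, 4 and 8 h of CX-5461, and 1 and 13 between the inhibitors at 2 and 8 h. There the shares of all rows were 51.5% and 69.2%, 16.4%, 53.5% and 37.4%, and 1.95% and 65.4%. Of the 2 tested genes, 1 was called between the inhibitors at 4 h after centring, and 2 at 8 h after centring, with median-ratio factors, with voom weights and with only the groups compared; leaving out a library gave 1 to 2, with 2 without BMH-21 8 h replicate 2, and the cause was not tested. The Hoxc13 difference from 4 to 8 h of BMH-21, not called, ran from -0.0105 (without BMH-21 8 h replicate 3) to 0.1724 when a library was left out. Deviations of same-numbered replicates correlated by -0.111 to 0.093 over 27 pairs. In 11 of these 27 the first sample correlated best with its own number. These values gave no clear sign of pairing by number, and 3 replicates a group cannot exclude it. The replicate block left each of the 9 counts of calls as it was, with 2 of 2 against control and 0, 0 and 1 between the inhibitors. Depth limits the 36 low genes, where a log2 value of -4.63 to -3.59 is 3 reads.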
